A study of Mus musculus with 4 samples.

Results

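Genes of natural killer (NK) cells and of the cytotoxic granule were followed across 4 spleen arrays. The set holds 10 genes, chosen by name with earlier results of these data known. They are the receptor genes Ncr1, Klrb1c, Klrk1, Klrd1 and Klre1, the granule genes Prf1, Gzma, Gzmb and Nkg7, and the transcription factor gene Eomes. Every probe annotated to exactly 1 of these symbols was taken, which gave 14 probes for 9 of the genes, of 34885 probes with 1 symbol on the array. Gzma was not analysed here. The Gzmb probe was below background on all 4 arrays, so 13 probes of 8 genes entered the tests, of 24156 probes in all.

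NK cells kill infected or altered cells without prior immunisation. Their receptors weigh activating against inhibitory signals from the target, and the granules they release carry perforin, which opens the target's membrane, and granzymes, proteases that trigger its death. CD8 T cells use the same granules and share several of the receptors, and in the spleen NK cells are found mainly in the red pulp.

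The arrays measured RNA of spleen cells sorted as marginal zone macrophages by several surface antigens, among them SIGN-R1, which had to be present, and I-Ab, which had to be absent. All mice were BXD2, a recombinant inbred strain derived from C57BL/6J and DBA/2J that develops a lupus-like disease. PBS-injected BXD2 mice gave the control arrays, control 1 and control 2. There was 1 array from BXD2-Ifnar-/- mice, which lack the type I interferon receptor and were also given PBS, and 1 from BXD2 mice that had received sLTβR-Fc intravenously (25 µg each), a soluble decoy receptor for lymphotoxin. These are called the knockout array and the decoy array where a value is given. Mice were 2.5 months old and were killed 10 hours after the injection. Each array pooled the cells of 2 mice. No group received a control Fc protein, so an effect of the decoy and an effect of injecting an Fc protein cannot be told apart.

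The deposited values were linear intensities, 1 per probe and array, with between 52.7% and 53.7% of the 45281 probes above the background of their array. Intensities in the text are quantile normalised between arrays, and a log2 difference is on that scale, where background remains and the change of a dim probe is understated. The control pair correlated at r = 0.992 across the probes tested, and other pairs at 0.968 to 0.976; probes are not independent replicates. Only the control group has a second array. The limma fit therefore takes all its spread from the control pair (1 residual degree of freedom), assumes that the lone arrays vary in the same way, and gives SEs that hold no spread of the lone groups. Cd209b, which encodes the SIGN-R1 of the gate, read 127 and 130 on the controls, 152 on the knockout array and 145 with the decoy. As deposited that was 1.18 to 1.35 times the background limit. A further Cd209b probe read 110, 101, 167 and 112 in the same order of arrays and was called higher in the knockout (log2 0.66, limma adjusted p 1.28e-06), and another read 108, 108, 124 and 110. In bulk RNA of this kind, fewer NK cells and less RNA of these genes per cell cannot be told apart.

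The promoters of the members were read from RefSeq (GRCm38.p6, the C57BL/6J reference, so BXD2 alleles may differ), which held windows for 9 of the 10 genes. Klrk1, Klre1 and Ncr1 are shown because their probes moved together across the arrays, and Nkg7 and Eomes because theirs did not. Each sequence covers the 250 bases before the transcription start, 5′ to 3′ on the gene's strand. Capitals mark letters of 4 motifs searched on both strands: TGTGGT (RUNX), AGGTGT (T-box), AGGAAG (ETS core) and TTCNNNGAA (STAT).
Klrk1, chr6:129623865-129624114, minus strand: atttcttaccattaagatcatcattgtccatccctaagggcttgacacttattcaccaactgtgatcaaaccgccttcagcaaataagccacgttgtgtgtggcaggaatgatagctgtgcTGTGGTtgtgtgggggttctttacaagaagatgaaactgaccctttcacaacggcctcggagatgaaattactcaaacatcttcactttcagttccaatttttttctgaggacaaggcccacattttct
Klre1, chr6:129577963-129578212, plus strand: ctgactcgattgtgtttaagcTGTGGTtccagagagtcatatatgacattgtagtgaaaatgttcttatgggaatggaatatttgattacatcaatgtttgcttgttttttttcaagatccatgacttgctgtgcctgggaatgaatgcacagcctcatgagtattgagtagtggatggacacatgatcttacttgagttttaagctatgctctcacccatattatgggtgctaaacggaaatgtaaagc
Ncr1, chr7:4337465-4337714, plus strand: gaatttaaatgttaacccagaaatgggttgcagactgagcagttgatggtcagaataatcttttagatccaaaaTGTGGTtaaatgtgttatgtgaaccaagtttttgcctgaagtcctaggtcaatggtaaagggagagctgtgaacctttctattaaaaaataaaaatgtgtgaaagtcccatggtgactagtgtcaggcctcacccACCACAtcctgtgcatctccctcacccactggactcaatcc
Nkg7, chr7:43436888-43437137, plus strand: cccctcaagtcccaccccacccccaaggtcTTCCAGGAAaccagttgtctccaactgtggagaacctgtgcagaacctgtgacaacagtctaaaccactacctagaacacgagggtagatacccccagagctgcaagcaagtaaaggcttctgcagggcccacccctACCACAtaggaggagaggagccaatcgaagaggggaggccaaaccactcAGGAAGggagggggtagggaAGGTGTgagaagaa
Eomes, chr9:118477939-118478188, plus strand: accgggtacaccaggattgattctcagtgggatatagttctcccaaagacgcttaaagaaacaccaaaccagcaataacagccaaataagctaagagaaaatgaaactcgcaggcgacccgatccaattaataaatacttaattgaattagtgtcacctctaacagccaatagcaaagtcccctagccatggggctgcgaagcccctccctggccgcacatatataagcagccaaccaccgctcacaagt

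Counts are over windows of 300 bases, which add the 50 bases after the start, with the first window of each gene. The RUNX letters were in 8 of the 9 genes, all but Eomes, and in 16.8% of all 32851 RefSeq windows. The T-box letters, bound by the factors that Eomes and Tbx21 encode, were in 3 of 9 (Nkg7, Prf1 and Gzma) and in 13.7% of all windows. The ETS core letters were in 3 of 9 (Klrb1c, Nkg7 and Prf1) against 35.4%, and the STAT letters in 2 of 9 (Nkg7 and Gzmb) against 8.3%. Nkg7 was the 1 member with all 4 motifs. Klre1 and Ncr1 each have a further window with another start; that of Klre1 holds no RUNX letters and 1 ETS core. A match is a description of letters and not a bound site.

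Among the receptor genes, Ncr1 encodes NKp46, the receptor that marks NK cells and innate lymphoid relatives most closely. It read 285 and 350 on the controls, 733 on the knockout array and 294 with the decoy. The Ifnar-/- value stood alone above the other 3. Ncr1 rose on the Ifnar-/- array by a log2 of 1.21 ± 0.19 (SE), or 2.32-fold, with an adjusted p of 1.74e-05 in limma. It was the 1 member probe at least 2-fold above each control there (log2 1.36 and 1.07), where 0.472% of all probes tested were that much higher. On the sLTβR-Fc array it lay between the controls.

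Klrk1 encodes NKG2D, an activating receptor for stress-induced ligands. Its brightest probe read 440 and 659 on the controls, 921 on the knockout array and 459 with the decoy. The Ifnar-/- value was the highest, and the sLTβR-Fc value lay between the controls. The rise on the Ifnar-/- array was 1.71-fold (log2 0.77 ± 0.23, limma adjusted p 0.0203), made up of a log2 of 1.07 over control 1 and 0.48 over control 2. Another 3 Klrk1 probes of the same accession stayed near background, between 101 and 144 over the 4 arrays. The brightest of them read 118, 113, 131 and 109 in the same order of arrays. All 3 were not well above background on the sLTβR-Fc array. On the Ifnar-/- array each was above both controls, and 1 of them passed limma (log2 0.40 ± 0.088, adjusted p 0.00131, measured on 1 of 2 controls).

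Klrb1c encodes NK1.1, the surface antigen by which NK cells of C57BL/6 mice are usually gated. It read 803 and 583 on the controls, 921 on the knockout array and 440 with the decoy. Here control 1 was the higher control, unlike the other bright receptor probes. The Ifnar-/- array was above both controls (log2 0.43 ± 0.22, limma adjusted p 0.262) and the sLTβR-Fc array below both (log2 -0.64 ± 0.22, adjusted p 0.0555), and neither passed. The decoy difference did pass as deposited (log2 -1.29, adjusted p 0.000351), with upper quartile scaling (log2 -0.97, adjusted p 0.000205), with probes above background on all arrays (adjusted p 0.0402) and with the brightest probe of each gene (adjusted p 0.0382).

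Klrd1 and Klre1 lie next to each other and to Klrk1 on chromosome 6, in the cluster of NK lectin receptor genes. Klrd1 encodes CD94, the partner chain of the NKG2 receptors that read nonclassical MHC class I. DBA/2J, a parent of the strain, is known to lack CD94. Klrd1 read 1936 and 3262 on the controls, 4649 on the knockout array and 2372 with the decoy, and was far above background on all 4. The Ifnar-/- value was the highest and the sLTβR-Fc value lay between the controls. Its rise on the Ifnar-/- array was 1.85-fold (log2 0.89 ± 0.22, limma adjusted p 0.00493), with a log2 of 1.26 over control 1 and 0.51 over control 2.

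Klre1 encodes a lectin-like receptor that pairs with Klri1 or Klri2 on NK cells. It read 496 and 889 on the controls, 1149 on the knockout array and 624 with the decoy. The order of the arrays was the same as that of Klrd1 and Klrk1. Klre1 rose 1.73-fold on the Ifnar-/- array (log2 0.79 ± 0.25, limma adjusted p 0.0328), and against control 2 alone the log2 difference was 0.37. Without a filter on dim probes its adjusted p was 0.0693.

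**Figure D1:**
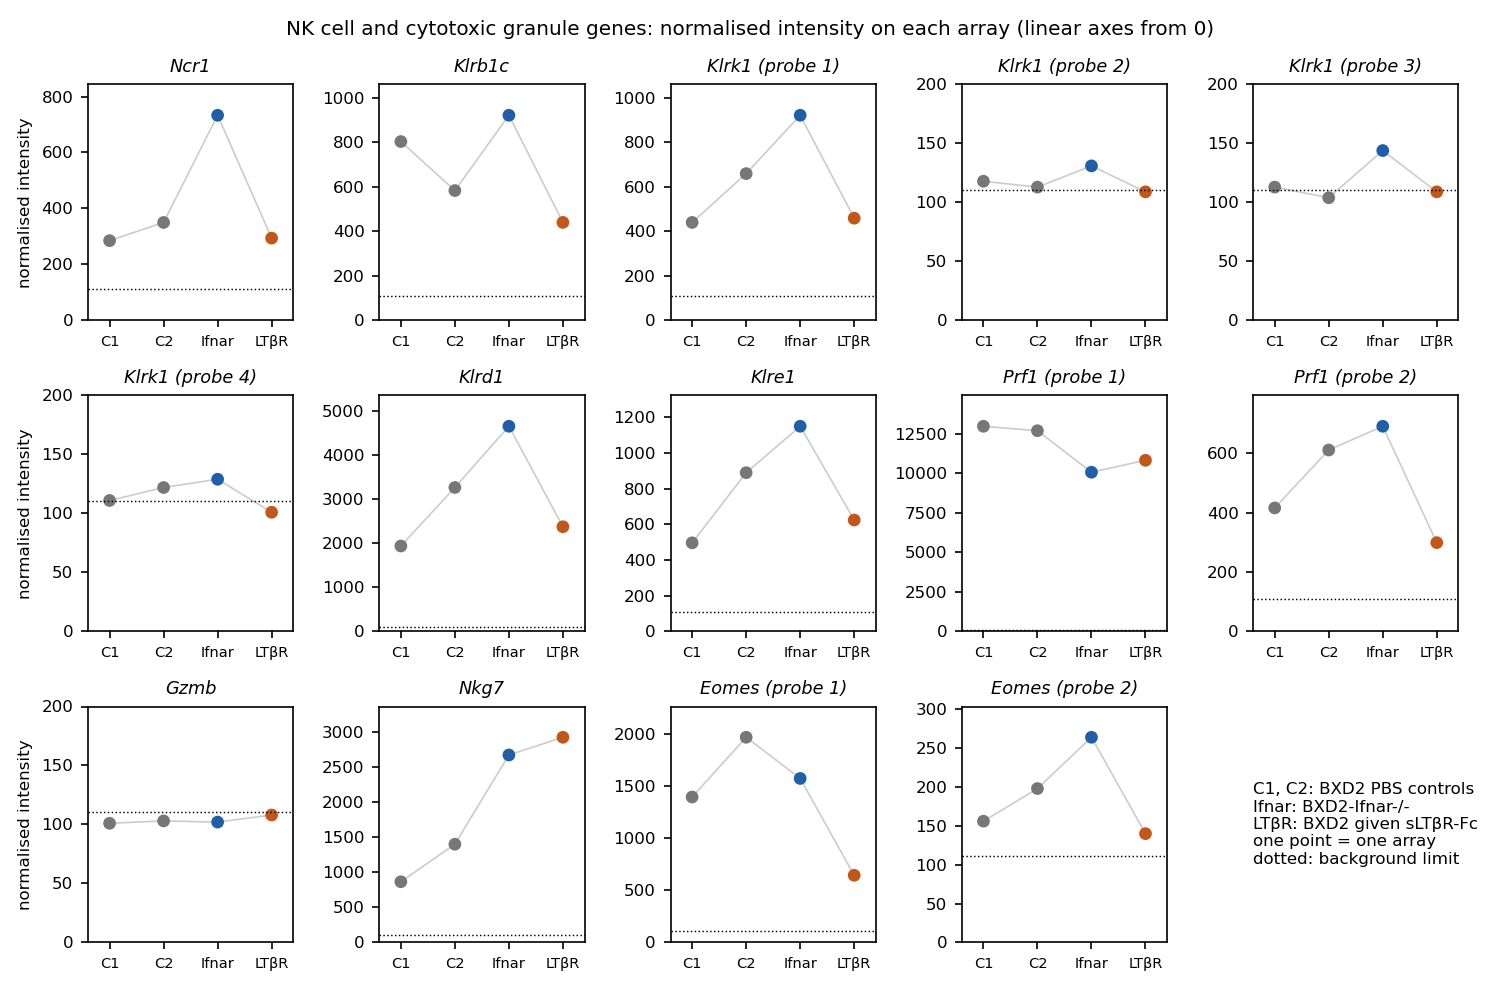
Normalised intensity (linear axes from 0) of each of the 14 member probes on the 4 arrays, 1 point per array, with the background limit dotted. Klrd1, Klre1 and the brightest Klrk1 probe run in the same order, from control 1 to sLTβR-Fc, control 2 and Ifnar-/-; Nkg7 is high on both lone arrays, and Gzmb lies under the limit.

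Granule genes did not follow 1 pattern. Prf1 encodes perforin and has a pair of probes annotated to the same transcript. The first read 12959 and 12678 on the controls, 10056 on the knockout array and 10810 with the decoy. Both lone arrays were below both controls, which lay 1.02-fold apart. The difference passed limma on the Ifnar-/- array (log2 -0.35 ± 0.11, adjusted p 0.0361) and not on the sLTβR-Fc array (log2 -0.25 ± 0.11, adjusted p 0.156). The first call was lost with probes above background on all arrays (adjusted p 0.139) and with the brightest probe of each gene (adjusted p 0.0721). It was kept with values as deposited (log2 -0.64, limma adjusted p 0.00207), where the median of all probes was -0.141. The second probe read 416 and 611 on the controls, 691 on the knockout array and 299 with the decoy. That probe had the order of the receptor genes between the controls and the Ifnar-/- array, and it was lower on the sLTβR-Fc array than on either control (log2 -0.75 ± 0.22, limma adjusted p 0.0161). On the Ifnar-/- array its difference was 0.46 ± 0.22 (adjusted p 0.202), opposite in sign to that of the first probe. The probes disagree, and which of them reports perforin RNA was not tested.

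Nkg7 encodes a membrane protein of the cytotoxic granule that is needed for its release. It read 867 and 1403 on the controls, 2678 on the knockout array and 2931 with the decoy. Both lone arrays lay above both controls. Nkg7 rose 2.43-fold on the Ifnar-/- array (log2 1.28 ± 0.24, limma adjusted p 0.000158) and 2.66-fold on the sLTβR-Fc array (log2 1.41 ± 0.24, adjusted p 3.69e-05). On the sLTβR-Fc array it was at least 2-fold above each control (log2 1.76 and 1.06), which 0.749% of all probes were. Gzmb, the gene of granzyme B, read 101 and 103 on the controls, 102 on the knockout array and 108 with the decoy. As deposited these were 0.907 to 0.978 times the background limits, so no fold is given.

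Eomes encodes a T-box factor that maintains mature NK cells and marks them against type 1 innate lymphoid cells. Its brighter probe read 1395 and 1968 on the controls, 1573 on the knockout array and 644 with the decoy. The sLTβR-Fc value stood alone at the bottom. Eomes fell there to 0.389 of the control mean (log2 -1.36 ± 0.23, limma adjusted p 4.97e-05), at least 2-fold below each control (log2 -1.11 and -1.61), which 0.389% of all probes were. On the Ifnar-/- array this probe lay between the controls. The dimmer probe, designed to another transcript record, read 156 and 198 on the controls, 264 on the knockout array and 140 with the decoy. On the sLTβR-Fc array it was below both controls as well, by a smaller amount (log2 -0.33 ± 0.14, adjusted p 0.122). On the Ifnar-/- array it rose (log2 0.59 ± 0.14, adjusted p 0.00278), where the brighter probe had a log2 of -0.075.

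The control arrays differed from each other on these genes. Control 2 was the higher in 9 of the 13 member probes, against 52.1% of all probes, with a median log2 gap of 0.34 against 0.0069 for all probes. No member reached a 2-fold gap, which 0.182% of all probes did. Klre1 had the largest, 0.84 (1.79-fold), and 0.31% of all probes had a gap as large in either direction. For Klrd1 the gap was 0.75 (0.414% of probes), for Nkg7 0.69 (0.526%), for the brightest Klrk1 probe 0.58 (1.04%), for the dimmer Prf1 probe 0.55 (1.27%) and for the brighter Eomes probe 0.50 (1.73%). Klrb1c ran the other way at -0.46. The control group gives the only measure of spread, so the size of each rise in Klrd1, Klre1 and Klrk1 depends on which control it is set against, as the values above show. The labels do not say whether the control arrays hold different mice. The p-values therefore rest only on how far this pair lies apart over all probes, possibly for technical reasons. limma drew the spread of each probe towards the trend over all probes, with 37.1 prior against 1 residual degrees of freedom. A p-value thus reflects little of a probe's own gap. On the Ifnar-/- array Klre1 (gap 0.84) had an SE of 0.25, and the brightest Klrb1b probe (gap -0.01) one of 0.22.

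**Figure D2:**
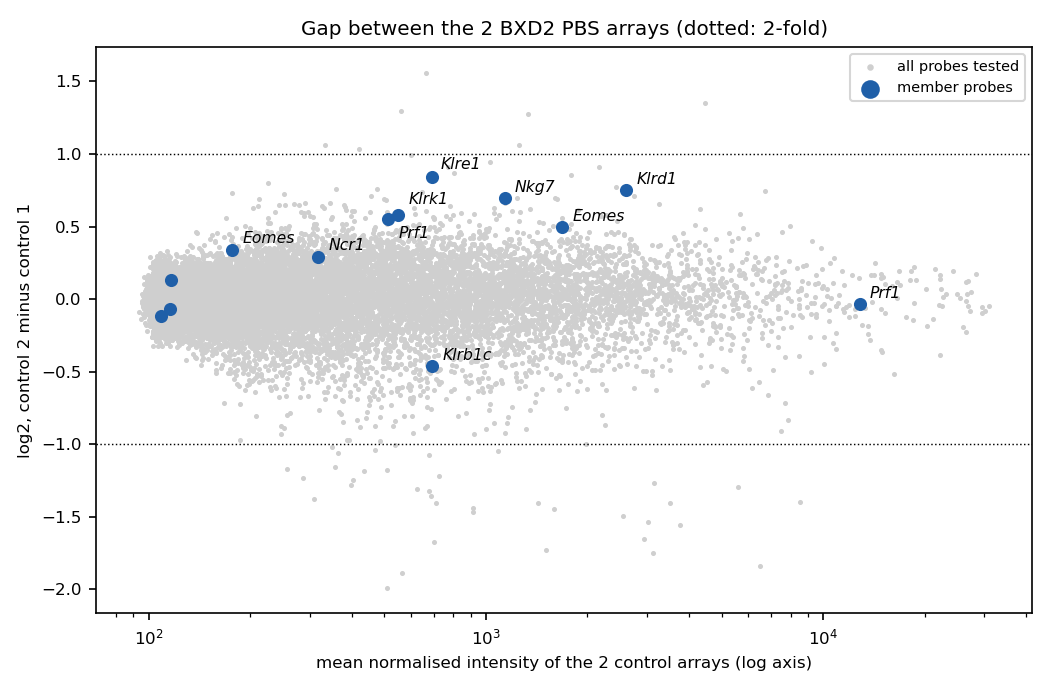
The log2 gap between the control arrays against their mean normalised intensity (log axis), for all 24156 probes tested (grey) and the 13 member probes (blue). Klre1, Klrd1 and Nkg7 sit near the upper edge, at 0.84, 0.75 and 0.69, while Klrb1c lies at -0.46 and the bright Prf1 probe at -0.03.

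Counted over all member probes, the Ifnar-/- array was above both controls in 11 of 13, against 41.1% of all probes, and below both in 1, against 36%. limma called 7 of the 13 higher, with a background of 5.11%, and 1 lower, with a background of 5.51%. The median log2 difference was 0.46 over the 13 probes and 0.0085 over all probes. On the sLTβR-Fc array 7 of 13 were below both controls, against 39%, and 1 was above both, against 39.9%. The 7 include dim Klrk1 probes under the background limit there, and several are probes of the same gene. Of the 13 probes limma called 2 lower with the decoy (background 6.32%) and 1 higher (background 6.25%). The median was -0.21 against -0.00049 for all probes. By the brightest probe of each of 8 genes, 6 were above both controls on the Ifnar-/- array, against 42.9% of all genes. With the decoy 3 of these 8 were below both, against 35.6%. Both comparisons share the same control arrays. The members were chosen with earlier results of these data known, so the counts beside these shares are descriptions and not a test of the set. The counts depend on the scaling. As deposited, where the median of all probes was -0.141 on the Ifnar-/- array and -0.184 with the decoy, limma called 337 probes higher and 3504 lower on the first, against 1235 and 1330 after quantile normalisation, and 230 higher and 7571 lower on the second, against 1509 and 1526. The members called were then 2 higher on the Ifnar-/- array, Ncr1 and Nkg7, and 1 lower, the bright Prf1 probe. With the decoy 1 was called higher, Nkg7, and 10 lower. There 12 of 13 lay below both controls, as did 18382 of all 24156 probes. With upper quartile scaling 4 members were called lower with the decoy (3741 probes higher and 2727 lower in all). The calls also depend on the estimate of the spread. With a floor at the background limit or with background subtracted, limma called 0 of 13 members and 0 probes in all in each comparison, while 0 to 8 member probes had an unadjusted p under 0.05. The log2 differences stayed as large: on the Ifnar-/- array Ncr1 was at 1.21 with the floor and 1.5 with subtraction, and Klrd1 at 0.89 and 0.91. The prior degrees of freedom of limma were 0.855 and 2.21 in these fits against 37.1 otherwise. Without the mean-variance trend it called Ncr1 alone on the Ifnar-/- array and the brighter Eomes probe alone on the sLTβR-Fc array.

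**Figure D3:**
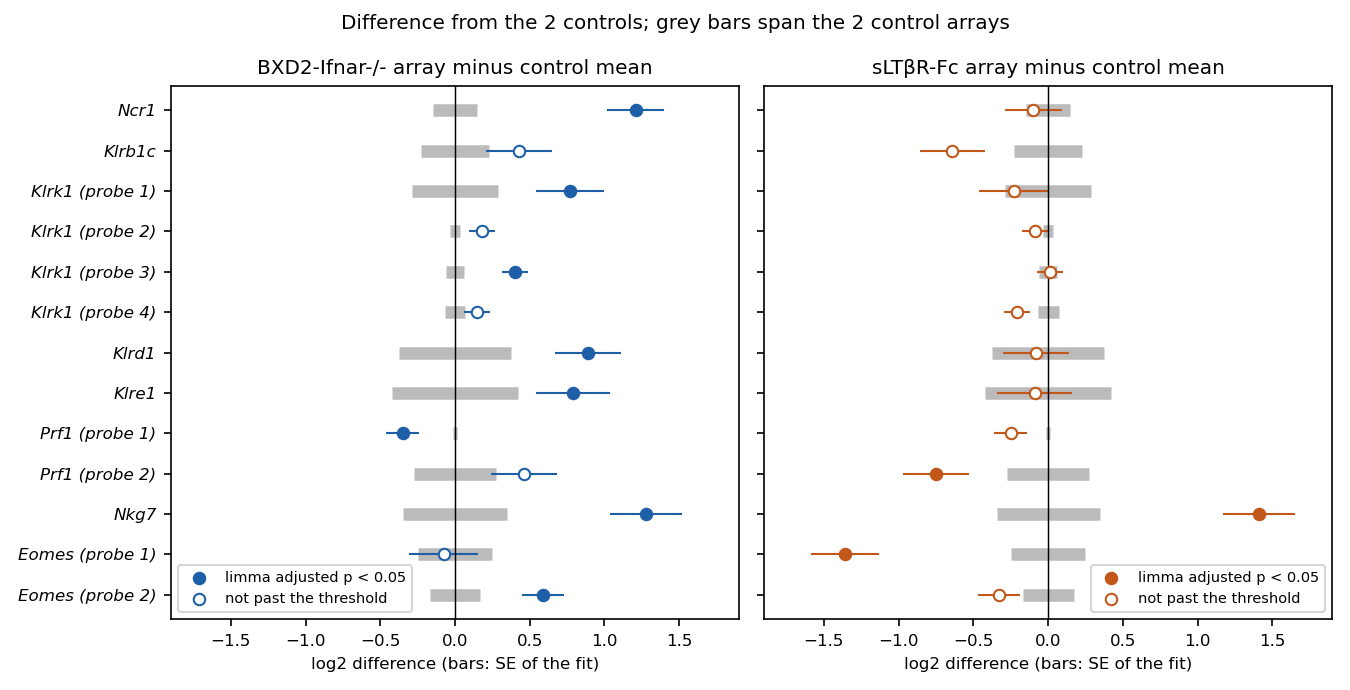
The log2 difference of each lone array from the control mean for the 13 member probes, with the SE of the fit; filled points passed limma at an adjusted p of 0.05, and grey bars span the control arrays. On the Ifnar-/- array 11 points lie right of their grey bar, and on the sLTβR-Fc array Nkg7 (1.41) and the brighter Eomes probe (-1.36) lie farthest from it.

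The lone arrays were then compared with each other, a difference in which the control levels cancel while the spread still comes from the controls. limma called 9 of the 13 member probes higher on the Ifnar-/- array than on the sLTβR-Fc array, with a background of 3.79%. It called 0 lower, with a background of 3.86%, and 0 of the 13 were lower at an unadjusted p under 0.05. Ncr1 was 2.49-fold higher (log2 1.32 ± 0.22, limma adjusted p 5.95e-05), the brighter Eomes probe 2.44-fold (log2 1.29 ± 0.27, adjusted p 0.00111), the dimmer Prf1 probe 2.31-fold (log2 1.21 ± 0.25, adjusted p 0.00102) and Klrb1c 2.10-fold (log2 1.07 ± 0.26, adjusted p 0.00618). The brightest Klrk1 probe and Klrd1 were close to those sizes, at a log2 of 1.00 and 0.97 (adjusted p 0.0113 and 0.0114). Klre1, at 0.88 ± 0.29, missed the threshold (adjusted p 0.0517), and passed under 4 alternatives, such as upper quartile scaling (log2 1.13, adjusted p 0.000346). The genes that differed little here were Nkg7 (log2 -0.13 ± 0.27, adjusted p 0.851) and the bright Prf1 probe (log2 -0.10 ± 0.13, adjusted p 0.72). A pair of dim Klrk1 probes also passed; both were not well above background on the sLTβR-Fc array, so they were at least 1.30-fold and 1.17-fold higher.

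Other genes linked to NK cells, including ligands of NK receptors and not only genes of NK cells themselves, were counted from 5 lists of 108 genes. Of these, 83 were tested by their brightest probe. Among them limma called 22 higher and 3 lower on the Ifnar-/- array, where it called 5.71% of all 14808 genes higher and 5.92% lower by their brightest probe. With the decoy it called 11 of the 83 higher and 13 lower, against 7.64% and 5.8% of all genes. These shares of all genes apply to each list that follows. The medians were 0.16 and -0.050, against 0.015 and 0.018 over the brightest probes of all genes. Whether these counts differ between the lone arrays was not tested. These lists, too, were chosen with earlier results of these data known, so their counts are descriptions.

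The receptor and adaptor list had 31 genes tested, of which 8 were called higher and 1 lower on the Ifnar-/- array, and 3 higher and 7 lower on the sLTβR-Fc array. Its Klra genes, which encode the Ly49 receptors for MHC class I, were split between the lone arrays. Of 8 tested, 5 were called higher on the Ifnar-/- array (median log2 0.86). With the decoy 2, Klra9 and Klra10, were called lower and 7 lay below both controls, against 35.6% of all genes (median -0.63). Between the lone arrays 6 were called higher and 0 lower on the Ifnar-/- array (6 and 0 at an unadjusted limma p under 0.05), against 3.75% and 4.94% of all genes. Control 2 was the higher control in 6 of 8, with a median gap of 0.79. Klra8 read 323 and 795 on the controls, 1138 on the knockout array and 302 with the decoy. Klra3 read 810 and 1693 on the controls, 2342 on the knockout array and 706 with the decoy. These are near-identical copies that vary between mouse strains, so the probes may not tell them apart. Klrg1, an inhibitory receptor of mature NK cells, read 170 and 210 on the controls, 420 on the knockout array and 201 with the decoy. It rose 2.23-fold on the Ifnar-/- array (limma adjusted p 1.02e-06), with controls that lay only 0.31 apart on the log2 scale. Klrb1b, an inhibitory relative of NK1.1, had still closer controls, 511 and 508, and read 1278 on the knockout array and 912 with the decoy (2.51-fold and 1.79-fold, adjusted p 3.23e-05 and 0.00743). Slamf6, a receptor of lymphocytes, fell on the sLTβR-Fc array (log2 -1.20, adjusted p 0.000198).

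Granule contents and release genes had 2 higher and 1 lower of 18 on the Ifnar-/- array and 2 higher and 1 lower on the decoy array. These counts are close to the shares over all genes. Gzmm, the gene of granzyme M, read 866 and 1384 on the controls, 382 on the knockout array and 516 with the decoy, and fell on both (log2 -1.52 and -1.08, limma adjusted p 1.36e-05 and 0.00133). Fasl, a death ligand, rose on the Ifnar-/- array (691 against 325 and 453, log2 0.85, adjusted p 0.00445). Serpinb6b, a granzyme inhibitor, read 1456 there against 499 and 561 on the controls (2.75-fold, adjusted p 7.12e-06). The other granzyme genes tested, Gzmc, Gzmd, Gzmf, Gzmg, Gzmk and Gzmn, stayed between 98 and 139.

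Of 9 transcription factor genes tested, 1 was called higher and 0 lower on the Ifnar-/- array (3 and 2 at an unadjusted limma p under 0.05), and 0 higher and 2 lower on the sLTβR-Fc array (0 and 2). Id2, which opposes B and T cell fates in innate lymphocytes, rose on the Ifnar-/- array (3674 against 1999 and 1846, limma adjusted p 0.00135). Its further probes disagree: 1 had a log2 of 0.076 there and -1.03 on the sLTβR-Fc array, the other 1.41 and 0.76. Tbx21, the T-box partner of Eomes, read 429 and 531 on the controls, 677 on the knockout array and 378 with the decoy. It passed limma in the comparison of the lone arrays (log2 0.84, adjusted p 0.0221) and against the controls in neither. Ets1, a factor needed for NK development, fell on the sLTβR-Fc array together with Eomes (866 against 1565 and 2003, log2 -1.03, adjusted p 0.00129), as did Tox (log2 -0.79, adjusted p 0.0025).

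Cytokine, chemokine and receptor genes had 10 of 18 called higher and 0 lower on the Ifnar-/- array, where at an unadjusted p under 0.05 these counts were 12 and 0. On the sLTβR-Fc array 6 were higher and 1 lower. The chemokine gene Xcl1, made by activated NK and CD8 T cells, had the pattern of Nkg7: 948 and 1443 on the controls, 2644 on the knockout array and 2855 with the decoy. Ccl3, Ccl4 and Ifng, also products of activated NK cells and of other leukocytes, were highest on the sLTβR-Fc array. Ifng read 353 and 366 on the controls, 490 on the knockout array and 951 with the decoy (2.64-fold, limma adjusted p 3.67e-06), and its further probe read 111, 119, 123 and 146. Ccl5, a chemokine stored by resting NK and memory T cells, was lowest with the decoy and highest in the knockout, with 7336 and 8012 on the controls, 12017 on the knockout array and 5069 with the decoy. The trafficking receptor genes S1pr5 and Cx3cr1 of mature NK cells rose on the Ifnar-/- array (log2 0.78 and 0.89, adjusted p 0.00267 and 0.00106) and had log2 differences of -0.049 and -0.028 on the sLTβR-Fc array.

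Genes of NK receptor ligands were few, with 7 tested. Clec2i, a ligand of an NK lectin receptor, read 442 and 476 on the controls, 858 on the knockout array and 258 with the decoy, and passed limma in both comparisons (log2 0.90 and -0.83, adjusted p 0.00158 and 0.00363). Clec2d, another such ligand, fell in both (log2 -1.44 and -1.04).

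Markers of other cells that can carry these transcripts were measured beside them. Of 14 T cell markers tested on the Ifnar-/- array, limma called 0 higher and 5 lower, with 0 and 8 at an unadjusted p under 0.05, and 11 lay below both controls, against 35% of all genes. Their summed intensity was 22188 and 29018 on the controls, 15818 on the knockout array and 14334 with the decoy. Control 2 was the higher control in 14 of 14, and 8 were called lower on the sLTβR-Fc array, where Eomes and the dimmer Prf1 probe also fell. Cd8b1, a chain of the CD8 coreceptor, read 5024 and 8411 on the controls, 2892 on the knockout array and 3226 with the decoy, in the same order of arrays as Gzmm. A dimmer probe followed (log2 -1.15 and -0.60, both called), but another read 952, 761, 857 and 1477 and was called higher with the decoy (log2 0.80, adjusted p 0.0157). The 4 tested markers of type 1 innate lymphoid cells were above both controls on the Ifnar-/- array, against 42.9% of all genes, and 2 passed limma. Of the 4, Cxcr6 and Tnfsf10 also stand on the NK lists. Tnfsf10 stayed near background, between 132 and 151, with a log2 of 0.02 over control 2 on the Ifnar-/- array. Those that passed were Il7r and Tmem176a, by their brightest probes (log2 0.65 and 0.67), and their further probes disagree. Further Il7r probes had a log2 of -0.34, -0.17, -0.25 and 0.75, of which only the last was called. The further Tmem176a probe had a log2 of 0.19 (limma adjusted p 0.247).

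Of 6 B cell markers tested, 3 were called higher on the Ifnar-/- array and 6 lay above both controls, against 42.9% of all genes. Between the controls their median gap was -0.043, against 0.54 for the brightest member probes. Their summed intensity was 21191 and 20311 on the controls, 31013 on the knockout array and 15184 with the decoy. Of 10 mast cell and basophil markers 9 were called higher on the sLTβR-Fc array, where Nkg7 also rose, and 10 lay above both controls, against 43.9% of all genes, and their sums were 14747 and 18741 on the controls, 13971 on the knockout array and 41622 with the decoy. Of 10 neutrophil markers 9 were called lower on the Ifnar-/- array and 1, Retnlg, was called higher (4.54-fold, limma adjusted p 2.6e-10), with sums of 46765 and 32034 on the controls, 17279 there and 57865 on the sLTβR-Fc array. Of 5 tested plasmacytoid dendritic cell markers 1 was called higher and 1 lower on the Ifnar-/- array (summed intensity 10891 and 10111 on the controls, 10965 and 10094 on the lone arrays). Of 8 genes tested on the marginal zone macrophage list 3 were called higher there, Cd209a, Cd209d and Adgre1, and 1 lower, Axl. The brightest probe of Cd209b was not called (limma adjusted p 0.147). Summed intensity of the 8 was 2657 and 1696 on the controls, 3341 on the knockout array and 2162 with the decoy. The part of any of these cell types in the values of the NK genes was not tested.

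**Figure D4:**
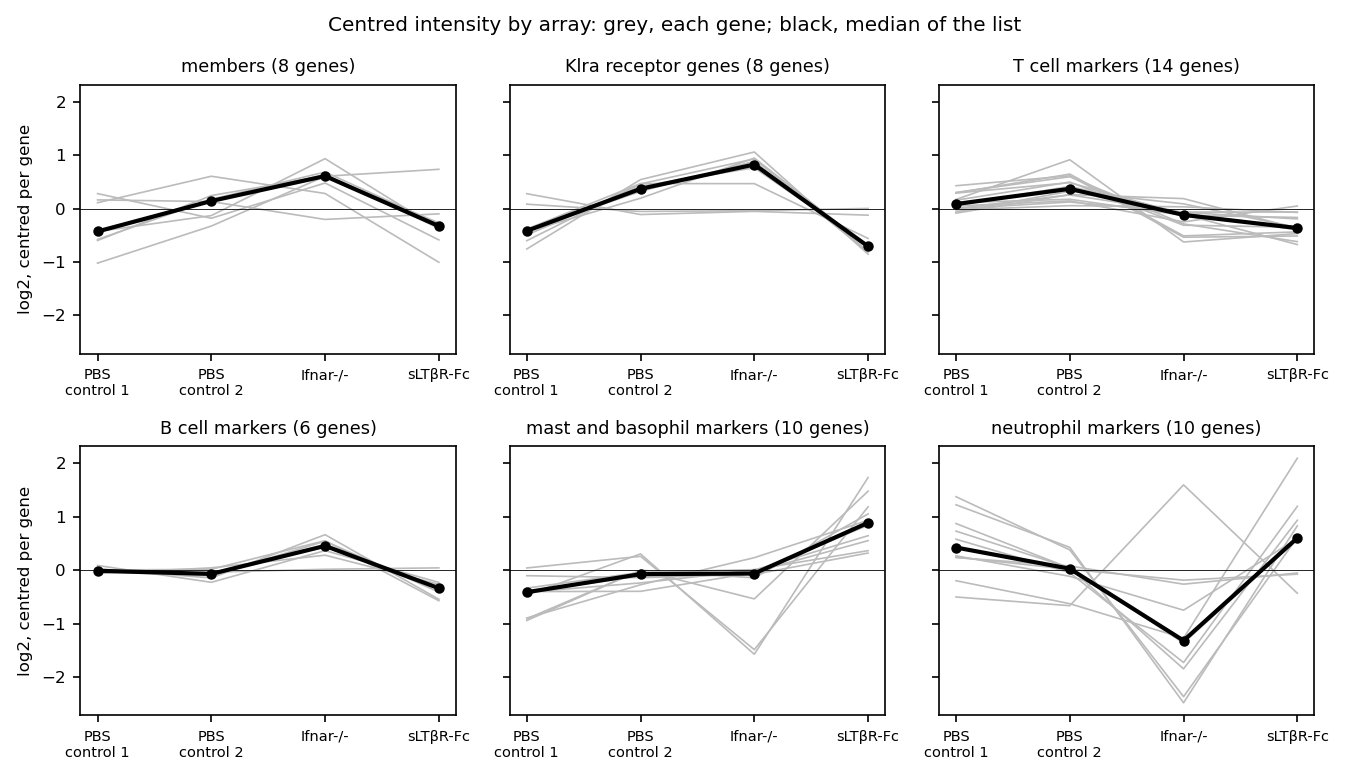
Log2 normalised intensity of each gene (grey, brightest probe) minus its mean over the 4 arrays, with the median of each list in black, for the members and 5 other lists. The median lines of the members, of the Klra genes and of the B cell markers are highest on the Ifnar-/- array. The T cell markers are all higher on control 2 than on control 1, and 5 of 14 were called lower on the Ifnar-/- array.

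The genes whose pattern over the 4 arrays came closest to the median member profile were named by a fixed measure, the root mean square difference of centred log2 values, among 816 genes with a range of at least 2-fold. They were Clec9a, a receptor of cross-presenting dendritic cells (0.0638), Fasl (0.064), Tulp4 (0.0778), Tpm4, a tropomyosin gene (0.0948), and Gp2 (0.097). Clec9a read 255 and 397 on the controls, 536 on the knockout array and 316 with the decoy. Of the members themselves the brightest Klrk1 probe (0.0448) was nearest to that median and Nkg7 (0.634) farthest. With 4 arrays, many genes can share a profile, and this likeness is a description.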

How the data were processed

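RNA of sorted spleen cells was labelled with biotin and hybridised to Illumina mouse arrays, per the labels' protocols; GenomeStudio 2011.1 is named in the submitters' processing notes. The deposited values are linear intensities, 1 per probe and array, and the sources used here do not give their scaling, background correction or filters. The platform's annotation supplied gene symbols: 34885 probes have 1, 18 several and 10378 none. Background was taken as the most frequent intensity of each array, and a probe passed above the 95% point of the noise mirrored about it (limits 106 to 115). Values were quantile normalised and log2 transformed without a floor, since a floor leaves many probes with no spread between the controls. Probes above background on at least 1 array (24156) were fitted with limma 3.58.1 (R 4.3.3). The fit used 3 group means, eBayes with a trend and Benjamini-Hochberg adjustment to 0.05, and was checked on simulated data. All simulated arrays varied alike, so that check could not test whether the lone arrays vary as the controls do. A gene on a list is its brightest probe. A whole group at background gives only a bound, computed against the lowest signal above background. As deposited, the median of all probes was -0.141 (Ifnar-/-) and -0.184 (sLTβR-Fc); under upper quartile scaling 0.0864 and 0.141. The members and lists were chosen with earlier results of these data known. All members were named, and from the lists genes past limma or the 2-fold rule in a comparison. Cd209b, Cxcr6, Tnfsf10, Klri1 and the dim granzyme genes are named outside that rule. Alternatives covered scaling, a floor, background subtraction, filters, probe choice, the trend and each control array.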

Additional observations from a re-analysis of the deposited data

Results flagged for a closer look

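The Ifnar-/- and sLTβR-Fc arrays, both set against the same controls, differed from each other by limma for 9 member probes, all higher on the Ifnar-/- array. The log2 difference was 1.32 for Ncr1, 1.29 and 0.91 for the brighter and the dimmer Eomes probe, 1.21 for the dimmer Prf1 probe, 1.07 for Klrb1c, 0.97 for Klrd1, and 1.00 for the brightest Klrk1 probe. A pair of dim Klrk1 probes, not well above background on the sLTβR-Fc array, allow only bounds there, at least 1.30-fold and at least 1.17-fold. Each side is 1 array, and the spread in the test is that of the control pair.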

How the results depend on the processing

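Each group but the controls is 1 array, so a spread of its own is not measured, and dim probes such as Gzmb give only bounds. limma calls depended most on the treatment of dim values and of the spread. With a floor at the background limit and with background subtracted, limma called 0 probes in each comparison and so 0 members, higher or lower, where the main fit called 2565 (Ifnar-/-), 3035 (sLTβR-Fc) and 1849 (between the lone arrays). Without the mean-variance trend these totals were 1338, 1264 and 688, and the members called were 1 higher and 0 lower on the Ifnar-/- array, 0 higher and 1 lower on the sLTβR-Fc array, and 1 higher between the lone arrays. With values as deposited, 2 members were called higher and 1 lower on the Ifnar-/- array. On the sLTβR-Fc array 1 was called higher and 10 lower (7801 probes in all). Below both controls lay 2 members on the first array, with 17352 of all 24156 probes, and 12 on the second, with 18382. The members 2-fold from each control were 0 higher on either array and 2 lower on the sLTβR-Fc array (879 probes in all). With upper quartile scaling, 4 members were called lower on the sLTβR-Fc array (6468 probes in all). There 3 were above both controls, with 14238 of all 24156 probes, and 0 were 2-fold higher (96 in all). With background subtracted, 2 members were 2-fold higher on the Ifnar-/- array (351 probes in all). The call of the bright Prf1 probe was lost (0 lower) with probes above background on all arrays and with the brightest probe per gene. The latter gave 1963 calls on the sLTβR-Fc array. With it 6 of 8 members were above both controls on the Ifnar-/- array (6354 of all 14808 genes). On the sLTβR-Fc array 3 of 8 were below both (5275 of all genes). With no filter, 2 members were above both controls on the sLTβR-Fc array (13308 of all 34885 probes). Before the start alone, 1 gene held the STAT letters. Against control 2 alone and control 1 alone, in that order, the sLTβR-Fc difference was -0.25 and 0.042 for Ncr1 and -0.46 and 0.29 for Klrd1. It was -0.51 and 0.33 for Klre1, and -0.52 and 0.062 for the brightest Klrk1 probe. A dim Klrk1 probe went the other way, with 0.072 and -0.047. The Ifnar-/- difference of the brighter Eomes probe was -0.32 and 0.17. These signs depend on the control. Signs also turned for dim Klrk1 probes on the sLTβR-Fc array, as deposited (-0.071), with the floor (-0.016) and with upper quartile scaling (0.16 and 0.043), and for Nkg7 between the lone arrays as deposited (0.17) and with upper quartile scaling (0.076). Among values of single probes, 306 were counted as the same, which includes control gaps and fits without 1 control, where no threshold applies. Another 69 lost the call, 16 gained it, 12 changed sign and 20 moved, control gaps among them. Apart from these constructions, the cause was not tested. No paired analysis was possible because the lone groups have 1 array each and share only 1 replicate number with the controls.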
